A study of Mus musculus with 91 samples.

Results

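The transcripts of 37 genes of cholesterol and fatty acid metabolism were followed in mouse regulatory T cells (Tregs), a class of CD4 T cells that depends on Foxp3 and holds immune responses in check. The genes were taken by symbol from every deposited table and comprised 18 enzymes of sterol synthesis, 5 genes that sense or control sterol supply, 9 genes of fatty acid synthesis and 5 genes of sterol efflux, uptake control and storage. All 37 had a row in at least 1 of the 8 tables, among 20378 genes found in any table, and 36 were tested in each of 18 comparisons. Fads2, a desaturase of long fatty acids, had a row at 72 h alone and was too low there to be tested.

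Tregs had been sorted from the spleen of C57/BL6 mice in which a red fluorescent reporter marks Foxp3-expressing cells, a feature shared by all groups, and their total RNA was sequenced after removal of ribosomal RNA. The mice had received FP, a fusion protein of mouse IL-2 with the IL-2 receptor chain CD25, or mouse IL-2 alone, or PBS. At 1.5 h and at 16 h there were 4 libraries each of FP, IL-2 and PBS. At 4 h there were 3 of FP, 4 of IL-2 and 3 of PBS. At 72 h there were 4 of FP, 3 of IL-2 and 3 of PBS, and at 168 h there were 4 of FP and 3 of PBS. A further table held Tregs treated in vitro for 1.5 h, with 3 IL-2 and 3 PBS libraries, and another held 3 libraries of a high dose of IL-2 and 3 of PBS, with neither dose nor time in the labels. A restimulation table, read at 1.5 h, held 4 libraries of FP followed by a second FP (repeated), 3 of PBS followed by FP (single) and 3 of PBS given both times. The labels give the 91 samples one treatment text with 20 µg of FP and 1.5 h, so times were taken from the treatment label. They name no age, no interval between injections and no separate animals, and p-values therefore measure the spread between these libraries.

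Total counts per library ran between 12212262 and 46108114. Summed over their lists, the 6 Treg markers, Foxp3 and Il2ra among them, reached 2933 to 6288 CPM, which are counts scaled to library size with TMM factors. The sums were 13.9 to 48.0 CPM for 6 B cell markers and 7.54 to 24.2 CPM for 5 CD8 T and NK cell markers. The 12 macrophage and other myeloid markers summed to 26.4 to 2345 CPM and 6 erythroid markers to 1.14 to 47.8 CPM. No marker with a row was at 0 in every library of a group. CPM values come from tables that were scaled separately, and values are compared within a table.

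Cells build cholesterol from acetyl-CoA through the mevalonate pathway and build fatty acids from the same precursor. When sterols run low, the protein encoded by Scap carries the transcription factors encoded by Srebf1 and Srebf2 to the Golgi, where they are cut free and switch on both sets of enzymes, while the product of Insig1 holds them back. When oxidised sterols are plentiful, the LXR receptors, of which Nr1h2 encodes one, switch on the exporters Abca1 and Abcg1 and Mylip, whose product marks the LDL receptor for degradation. In T cells the mevalonate pathway also supplies the prenyl groups that anchor signalling proteins, and it is known to be needed for Treg function.

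At 1.5 h after IL-2, late sterol synthesis enzymes and the fatty acid synthase gene were higher than after PBS, and the desaturase Scd2 was lower. Of the 36 genes tested, 10 rose and 2 fell in edgeR's quasi-likelihood test at a Benjamini-Hochberg adjusted p below 0.01, where 8.39% of all genes rose and 5.79% fell (14.2% called in all). In the sterol synthesis group 7 of 18 rose and none fell, with a median log2 change of 0.42 against -0.0081 over all genes. The fatty acid group was divided, with 2 of 8 higher and 1 lower, and in the efflux and storage group 1 of 5 fell. Hsd17b7, an enzyme of the late demethylation steps, stood at 17.9, 12.7, 11.9 and 14.6 CPM after IL-2, against 7.41, 6.88, 6.86 and 7.89 CPM after PBS (log2 change 0.97, SE 0.14, edgeR adjusted p = 0.000137). Fasn, the fatty acid synthase, stood at 355, 304, 323 and 370.5 CPM after IL-2, against 166, 170.2, 189 and 164 CPM after PBS (log2 change 0.97, SE 0.10, edgeR adjusted p = 6.5e-06). All 4 IL-2 libraries lay above all PBS libraries for both genes, with fitted levels 1.97-fold those after PBS for Hsd17b7 and 1.96-fold for Fasn.

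Sqle, which oxidises squalene in a step that limits the flow into sterols, had 36.9, 33.6, 37.5 and 40.2 CPM after IL-2, against 20.6, 21.6, 27 and 20.7 CPM after PBS (log2 change 0.72, SE 0.13, edgeR adjusted p = 0.000971). Cyp51, which removes a methyl group from lanosterol, had 76.1, 61.1, 66.5 and 59.7 CPM after IL-2, against 35.9, 44.2, 43.9 and 39.3 CPM after PBS (log2 change 0.69, SE 0.12, edgeR adjusted p = 0.000819). Msmo1, which oxidises the next methyl groups, had 44.9, 28.8, 37.5 and 30.3 CPM after IL-2, against 22.9, 24.6, 26.5 and 18.6 CPM after PBS (log2 change 0.61, SE 0.15, edgeR adjusted p = 0.00738). In these 3 genes too the lowest IL-2 library was above the highest PBS library. Smaller increases were called for Ebp, a sterol isomerase (0.48 on the log2 scale), for Mvd, which makes isopentenyl diphosphate (0.42), and for Fdft1, the squalene synthase (0.41). Exons of Fdft1 overlap those of Ctsb, a protease gene on the opposite strand, over 18.3% of their length, and whether reads were counted by strand is not given in the sources used here, so that its value is uncertain.

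The fatty acid elongase Elovl6 had 61.1, 61.4, 41.1 and 41.1 CPM after IL-2, against 36.5, 24.7, 27 and 24.1 CPM after PBS (log2 change 0.86, SE 0.16, edgeR adjusted p = 0.00141), without overlap. Scd2, a desaturase that makes monounsaturated fatty acids, went the other way, with 44.4, 41.2, 39.9 and 40.0 CPM after IL-2, against 65.3, 82.8, 76.1 and 101 CPM after PBS (log2 change -0.97, SE 0.12, edgeR adjusted p = 6.06e-05). Every IL-2 library was below every PBS library. Scd2 has a close paralog in Scd1, so that its count is uncertain where reads match both genes, and Scd1 stood at no more than 10.2 CPM in any library at 1.5 h. Mylip fell as well, to 36.7, 28.5, 31.5 and 30.0 CPM after IL-2, against 40.8, 43, 43.3 and 50.7 CPM after PBS (log2 change -0.49, SE 0.11, edgeR adjusted p = 0.00518). Of the genes that control the pathway, Scap rose slightly (0.35), with 83.5, 87.2, 76 and 93.6 CPM after IL-2 and 70.7, 65, 66.9 and 65.1 CPM after PBS, while Srebf1, Srebf2, Insig1 and Stard4, a sterol carrier, were not called. Of the 12 calls, 7 held whichever of the 8 libraries was left out. Mvd, Fdft1, Msmo1, Scap and Mylip each lost the call without certain single libraries, each of the 8 ending at least 1 of these calls, with highest edgeR adjusted p-values of 0.0143 to 0.0321. Macrophage and other myeloid markers summed to 439 to 2345 CPM after IL-2, against 503 to 1912 CPM after PBS, and none of the 11 tested was called. In bulk RNA, fewer cells of a type and less RNA per cell cannot be told apart.

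After FP at 1.5 h Fasn and Hsd17b7 led with fewer calls: 4 genes rose and 1 fell, where 4.39% of all genes rose and 2.28% fell (6.67% in all). Fasn had 352, 286, 292 and 268 CPM after FP, against 166, 170.2, 189 and 164 CPM after PBS (log2 change 0.80, SE 0.09, edgeR adjusted p = 7.84e-05). Hsd17b7 had 12.486, 11.7, 11.5 and 12.516 CPM after FP, against 7.41, 6.88, 6.86 and 7.89 CPM after PBS (log2 change 0.73, SE 0.14, edgeR adjusted p = 0.00267). Cyp51 had 66.4, 65, 59.9 and 45.5 CPM after FP, against 35.9, 44.2, 43.9 and 39.3 CPM after PBS (log2 change 0.54, SE 0.12, edgeR adjusted p = 0.00884). In all 3 the groups did not overlap. Mvd likewise had 23.1, 21.4, 20.8 and 25.5 CPM after FP, against 17, 15, 17.3 and 15.6 CPM after PBS (log2 change 0.49, SE 0.10, edgeR adjusted p = 0.00541). Scd2 fell to 52.8, 48.9, 45.4 and 61.4 CPM after FP, against 65.3, 82.8, 76.1 and 101 CPM after PBS (log2 change -0.64, SE 0.12, edgeR adjusted p = 0.00303). In neither did the groups overlap. Fasn alone was called whichever library was left out, and the count of 5 fell to between 1 (without PBS replicate 2) and 3 without FP replicate 1, 2 or 3 or any PBS library. DESeq2 called 9 genes, 9.29% of all genes being called by it. Between FP and IL-2 none of the 36 genes was called by edgeR or by DESeq2, and edgeR called 0 of all 16643 genes (0%). An unadjusted p below 0.05 was found in 3 of the 36 and in 970 of all genes. Since FP and IL-2 share the PBS libraries, their changes are given side by side without a measure of likeness.

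**Figure D1:**
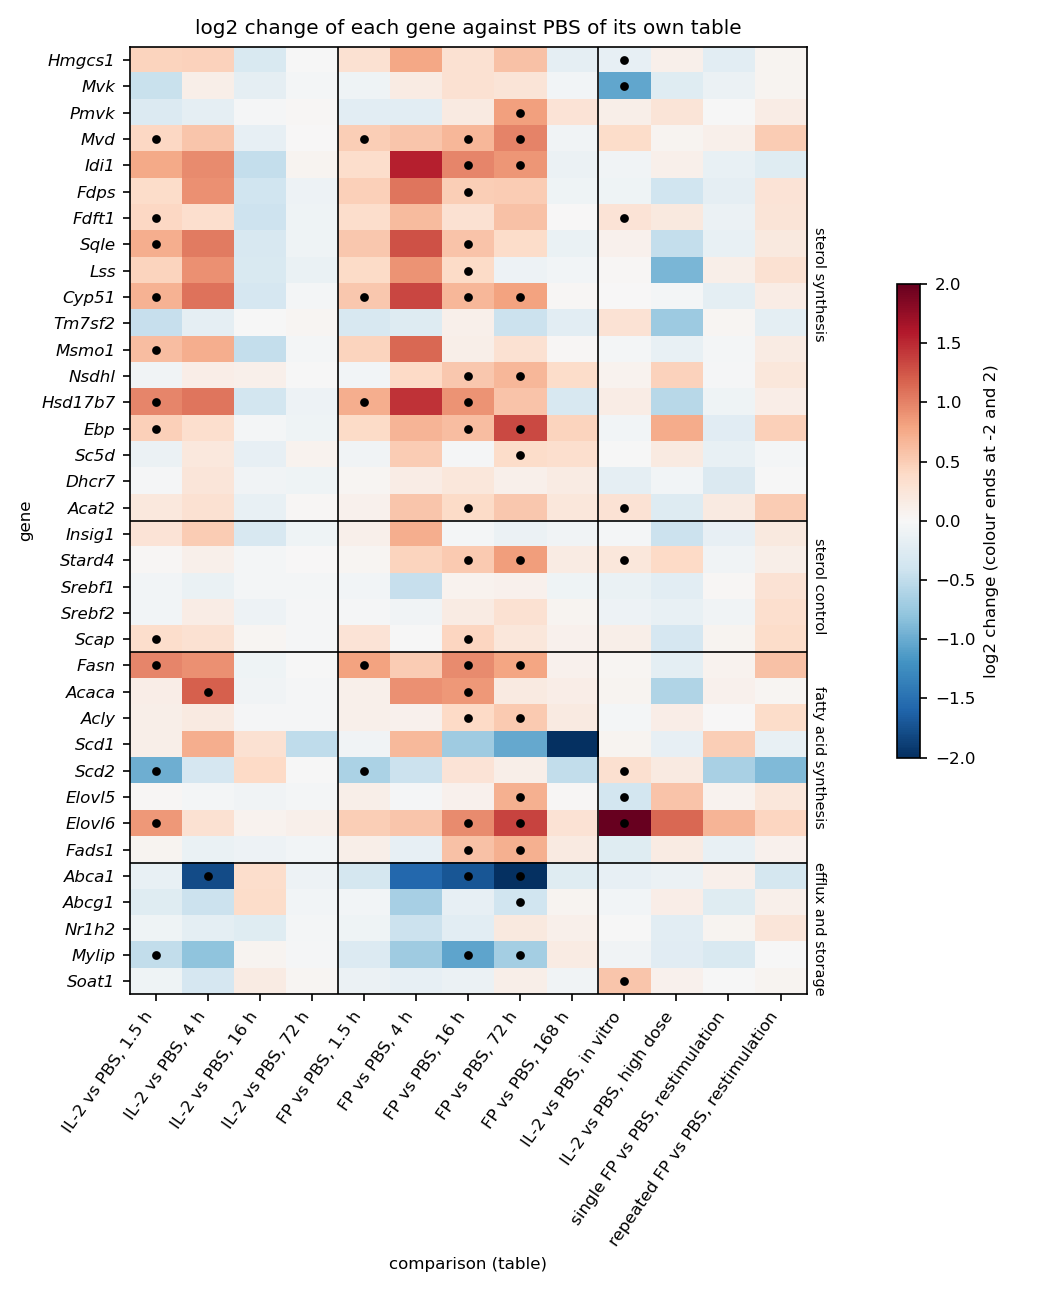
Map of the log2 change of the 36 tested genes (rows, grouped by role) in 13 comparisons with PBS of the same table (columns). Red is higher and blue lower than PBS, colours end at a log2 change of 2 in either direction, and black dots mark genes called by edgeR at an adjusted p below 0.01; the columns for FP at 16 h and 72 h hold 19 and 16 dots.

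Because several synthesis genes moved together at 1.5 h, the 200 bases before the RefSeq transcription start of 6 genes are shown: Cyp51, Msmo1, Hsd17b7 and Fasn as genes that rose, Hmgcs1 as the gene whose window holds a sterol regulatory element, and Abca1 as an efflux gene (build GRCm38.p6, 5′ to 3′ on the gene's strand). They lie at chr13:119690151-119690350, plus strand for Hmgcs1, at chr5:4104698-4104897, minus strand for Cyp51, at chr8:64733579-64733778, minus strand for Msmo1, at chr1:169969206-169969405, minus strand for Hsd17b7, at chr11:120824548-120824747, minus strand for Fasn and at chr4:53159896-53160095, minus strand for Abca1. Capitals mark matches on either strand to the motifs searched, which were the sterol regulatory element TCACNCCAC, the CCAAT box and the E-box CACGTG. The direct repeat bound by LXR receptors was searched as AGGTCA followed, after any 4 bases, by the same letters.
Hmgcs1: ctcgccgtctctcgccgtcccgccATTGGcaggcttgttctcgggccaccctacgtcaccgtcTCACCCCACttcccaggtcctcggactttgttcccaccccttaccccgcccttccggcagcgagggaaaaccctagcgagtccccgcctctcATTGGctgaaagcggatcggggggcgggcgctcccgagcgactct
Cyp51: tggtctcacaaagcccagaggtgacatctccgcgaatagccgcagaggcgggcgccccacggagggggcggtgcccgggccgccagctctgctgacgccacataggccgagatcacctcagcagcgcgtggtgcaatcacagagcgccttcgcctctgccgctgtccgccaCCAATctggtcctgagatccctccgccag
Msmo1: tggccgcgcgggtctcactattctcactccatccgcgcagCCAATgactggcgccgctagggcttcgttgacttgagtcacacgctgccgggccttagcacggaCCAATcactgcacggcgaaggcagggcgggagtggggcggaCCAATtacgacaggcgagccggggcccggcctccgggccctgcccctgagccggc
Hsd17b7: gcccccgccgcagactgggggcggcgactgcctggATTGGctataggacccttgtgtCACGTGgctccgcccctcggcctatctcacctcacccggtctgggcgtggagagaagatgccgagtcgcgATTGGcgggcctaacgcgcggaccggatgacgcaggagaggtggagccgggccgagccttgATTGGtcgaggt
Fasn: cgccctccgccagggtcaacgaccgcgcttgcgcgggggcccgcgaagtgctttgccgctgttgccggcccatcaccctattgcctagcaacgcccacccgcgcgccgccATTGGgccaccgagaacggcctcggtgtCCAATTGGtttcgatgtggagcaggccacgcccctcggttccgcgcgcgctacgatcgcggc
Abca1: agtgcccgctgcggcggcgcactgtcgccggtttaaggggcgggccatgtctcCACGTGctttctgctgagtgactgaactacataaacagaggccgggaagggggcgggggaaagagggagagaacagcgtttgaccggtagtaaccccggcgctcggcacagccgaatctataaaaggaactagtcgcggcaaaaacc

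Windows of 300 bases, reaching 50 bases past the start, were given for 29 of the 37 genes (35 windows). CCAAT was found in 14 of 18 windows of sterol synthesis genes (77.8%), in 65.7% of the windows of all 29 genes and in 37.4% of 32851 promoter windows of the annotation. Among the genes called higher after IL-2 at 1.5 h but not shown, Mvd and Ebp held CCAAT. Elovl6 and Scap did not, and no window was given for Sqle and Fdft1. CACGTG was found in 22.9% of the 35 windows against 7.15% of all, TCACNCCAC in 1 of them (Hmgcs1) against 1.24% of all, and the direct repeat in none of them against 0.015% of all. In Fasn 2 of the CCAAT matches overlap within the run CCAATTGG. As a check of the starts, all 50 bases past the RefSeq start were found in a GENCODE transcript for 5 of the 6 genes shown. For Hmgcs1, the gene with the sterol regulatory element match, only the last 22 of them were found, at the first base of a transcript, so that its annotated starts differ. The annotated starts of Cyp51 and Hsd17b7 differ too, as the transcripts held 49 and 36 further bases before the RefSeq start. The CCAAT match shown for Cyp51 and the last one shown for Hsd17b7 lie within those bases. Only these letters were searched, and elements that depart from them were left unmarked. The direct repeat matched 5 of 32851 windows, so finding none in 35 does not show that sites for LXR receptors are absent. The matches are descriptions of letters within these windows.

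At 4 h the sterol synthesis genes had their largest median log2 change after FP, but the libraries were scattered (common biological variation 38.4%, against 16.3% at 1.5 h) and few genes were called. After IL-2, 1 of 36 genes rose and 1 fell, where 0.567% of all genes rose and 0.0851% fell (0.652% called). Acaca, the carboxylase that makes malonyl-CoA for chain growth, had 85.9, 83.8, 84.5 and 83.6 CPM after IL-2, against 40.1, 28.9 and 41.6 CPM after PBS (log2 change 1.20, SE 0.17, edgeR adjusted p = 0.0068). Abca1, the exporter of cholesterol to lipoproteins, had 13.4, 13.5, 18.3 and 20.1 CPM after IL-2, against 50.5, 66.3 and 52 CPM after PBS (log2 change -1.78, SE 0.24, edgeR adjusted p = 0.00531). The groups did not overlap in either gene, yet both calls were lost when any 1 of the 7 libraries was left out, with highest edgeR adjusted p-values of 0.0517 for Acaca and 0.0501 for Abca1.

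After FP at 4 h edgeR called 0 of 36 genes, where 0.913% of all genes were called (0.72% higher and 0.193% lower). By unadjusted p, 19 of the 36 and 3108 of all 17636 genes were below 0.05. DESeq2 called 6 of the 36 higher and 1 lower (5.93% of all genes). Idi1, which isomerises isopentenyl diphosphate, had 8.95, 11.8 and 8.41 CPM after FP, against 3.2815, 2.74 and 3.87 CPM after PBS (log2 change 1.56, SE 0.30, edgeR adjusted p = 0.0198). Hsd17b7 had 16.3, 29.5 and 18.6 CPM after FP, against 8.38, 6.47 and 8.91 CPM after PBS (log2 change 1.44, SE 0.26, edgeR adjusted p = 0.0168). Abca1 had 23.9, 12.8 and 19.9 CPM after FP, against 50.5, 66.3 and 52 CPM after PBS (log2 change -1.58, SE 0.26, edgeR adjusted p = 0.0117). These 3 genes, chosen after their values were seen, missed the threshold. Their groups did not overlap, but the share of all genes without overlap between such small groups is not given. Over the sterol synthesis group 16 of 18 log2 changes were positive for FP and 16 of 18 for IL-2, with medians of 0.66 and 0.40 against 0.046 and 0.059 over all genes. All 5 efflux and storage genes were negative in both, with medians of -0.67 and -0.43. The signs for FP and IL-2 rest on the same PBS libraries, and the shares of all genes with these signs are not given.

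At 4 h, libraries of the same number deviated together in IL-2 and PBS (correlations of 0.375 to 0.798) and in FP and PBS (0.18 to 0.821). In FP and IL-2 not every such pair did (0.026 to 0.796). With the replicate number as a block 6 genes rose and 1 fell after FP (Idi1, Sqle, Cyp51, Msmo1, Hsd17b7 and Acaca higher, Abca1 lower), where 5.64% of all genes were called. The blocked count after IL-2 was 2 higher and 1 lower, Cyp51 being added, where 2.89% of all genes were called. Tags in the column names, whose meaning the labels do not give, group the libraries otherwise. With the tag as a block, an alternative added after the data were seen, 9 genes rose and 3 fell after FP and 10 rose and 2 fell after IL-2 (9.55% and 7.1% of all genes called). Sequencing lane differed as well, FP replicates 2 and 4 being on lane 1 and all other libraries used on lane 2. With lane as a covariate 0% of all genes were called after FP. Within tags, Abca1 had 12.8 CPM in FP replicate 2 against 50.5 CPM in PBS replicate 1, and 19.9 CPM in FP replicate 4 and 20.1 CPM in IL-2 replicate 4 against 52.0 CPM in PBS replicate 4. Idi1 had 11.8 CPM in FP replicate 2 against 3.281 CPM in PBS replicate 1, and 8.41 CPM in FP replicate 4 against 3.87 CPM in PBS replicate 4. No gene of the 36 was called between FP and IL-2 at 4 h by edgeR or DESeq2, with 0% of all genes called by edgeR. By unadjusted p, 1 of the 36 and 482 of all 17636 genes were below 0.05.

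**Figure D2:**
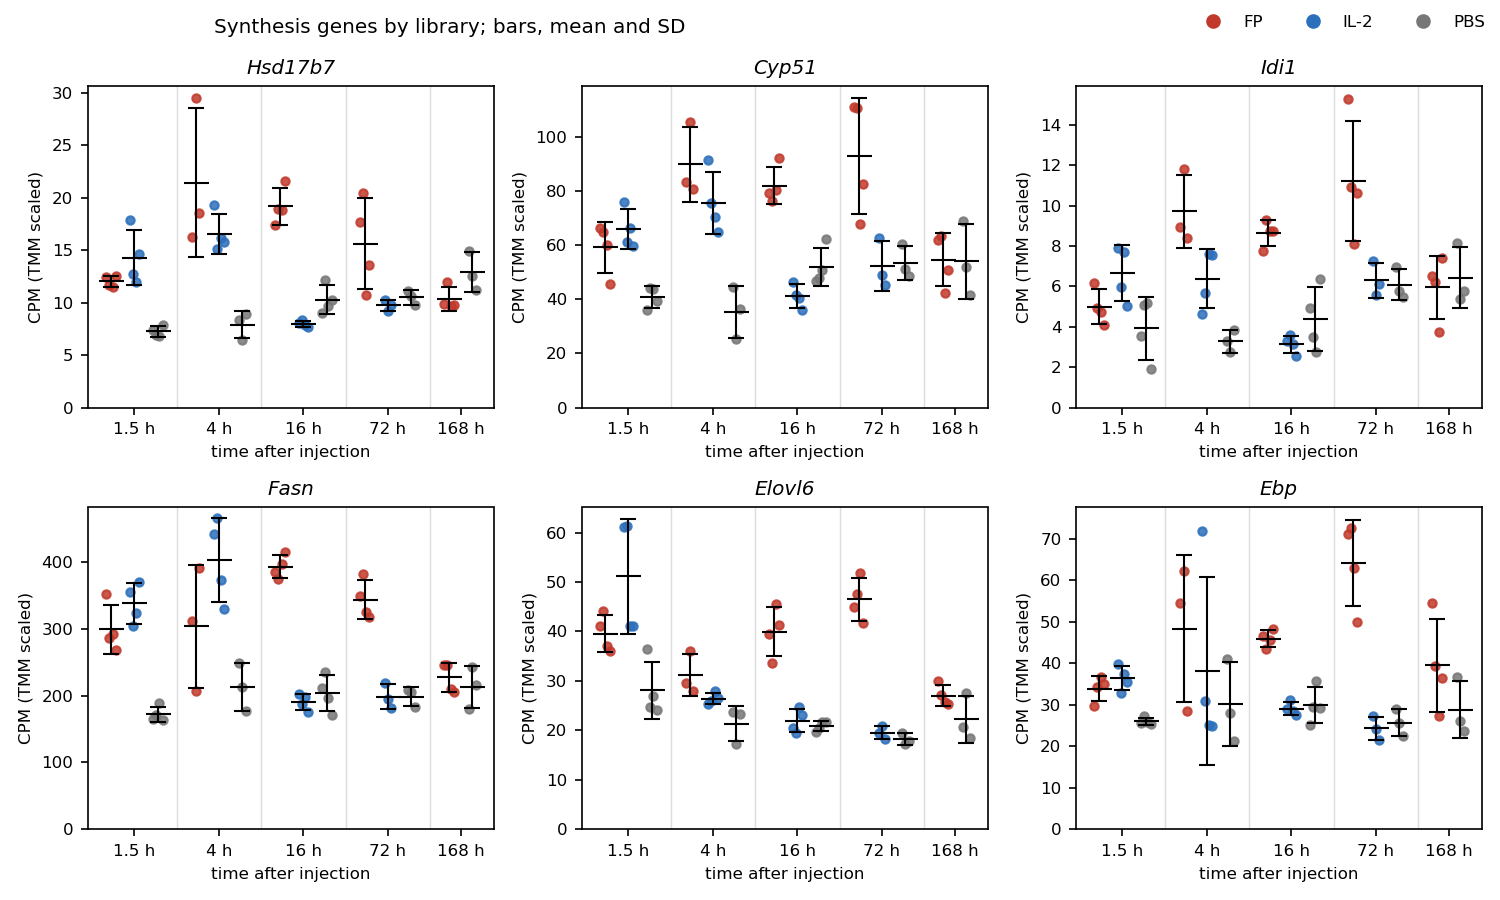
Level in CPM (vertical axis, from 0) of 4 sterol synthesis genes and 2 fatty acid synthesis genes by library after FP (red), IL-2 (blue) and PBS (grey) at each time (horizontal axis), with mean and SD as bars. The red points of Fasn at 16 h lie between 375 and 415 CPM, above every IL-2 and PBS library of that table.

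At 16 h FP and IL-2 differed from each other. After FP, 17 genes rose and 2 fell, where 14.4% of all genes rose and 14.3% fell (28.8% in all). After IL-2 edgeR and DESeq2 called 0 of the 36 genes, where 0.35% of all genes were called by edgeR (0.344% higher and 0.00573% lower). An unadjusted p below 0.05 was found in 15 of the 36 and in 2021 of all 17453 genes. Without PBS replicate 3 edgeR called 2 of the 36 for IL-2, Scd2 (0.52 on the log2 scale) and Abcg1 (0.47), both higher. FP against IL-2 directly gave 22 genes higher and 4 lower, where 16.8% of all genes were higher and 14.9% lower (31.8% called). They held 14 of 18 sterol synthesis genes and 5 of 8 fatty acid genes higher and none of them lower, and 4 of 5 efflux and storage genes lower. The median log2 change of the sterol synthesis genes was 0.39 for FP and -0.24 for IL-2, each against PBS, and 17 of the 18 were positive for FP and 17 of the 18 negative for IL-2. Both comparisons share the PBS libraries, and the shares of all genes with these signs are not given.

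Fasn had 385, 375, 398 and 415 CPM after FP and 203, 188, 197 and 176 CPM after IL-2, against 212, 236, 196 and 171 CPM after PBS (log2 change 0.95, SE 0.09, edgeR adjusted p = 2.19e-07 for FP against PBS). Hsd17b7 had 17.4, 18.9, 18.8 and 21.6 CPM after FP and 8.07, 8.34, 7.84 and 7.66 CPM after IL-2, against 8.97, 12.2, 9.65 and 10.2 CPM after PBS (log2 change 0.90, SE 0.11, edgeR adjusted p = 5.35e-06 for FP against PBS). Idi1 had 7.76, 9.29, 8.74 and 8.76 CPM after FP and 3.2882, 3.58, 3.14 and 2.58 CPM after IL-2, against 4.93, 3.49, 2.76 and 6.36 CPM after PBS (log2 change 0.98, SE 0.20, edgeR adjusted p = 0.000735 for FP against PBS). In each the FP libraries stood above all others, and the IL-2 libraries of Hsd17b7 stood below all PBS libraries without a call (log2 change -0.36, SE 0.11, edgeR adjusted p = 0.214). Acaca had 88.6, 87, 92.1 and 100.1 CPM after FP, against 56.1, 52.2, 44.2 and 49.4 CPM after PBS (log2 change 0.87, SE 0.08, edgeR adjusted p = 3.12e-07). Elovl6 had 39.4, 33.6, 45.6 and 41.3 CPM after FP, against 19.6, 20.5, 21.7 and 21.6 CPM after PBS (log2 change 0.94, SE 0.10, edgeR adjusted p = 1.43e-06). Both were free of overlap.

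The FP increases at 16 h covered early and late steps of the sterol pathway, 10 of 18 genes being called. Beside Idi1 and Hsd17b7 they were Mvd (0.67 on the log2 scale), Cyp51 (0.66), Ebp (0.62), Sqle (0.58) and Nsdhl, a sterol dehydrogenase (0.54). Smaller increases were those of Fdps, which makes farnesyl diphosphate (0.50), Acat2, which condenses acetyl-CoA (0.39), and Lss, the lanosterol synthase (0.38). Stard4 had 67.3, 72.9, 75.1 and 74.2 CPM after FP, against 49.8, 46.8, 48.7 and 55.9 CPM after PBS (log2 change 0.53, SE 0.07, edgeR adjusted p = 2.51e-05), without overlap, and Scap also rose (0.43). In the fatty acid group Fads1, a desaturase (0.59), and Acly, which makes acetyl-CoA from citrate (0.40), rose as well. Hmgcs1, the entry enzyme of the mevalonate pathway, was called against IL-2 and not against PBS, with 55.4, 54.2, 56.8 and 68.1 CPM after FP and 42.2, 38.7, 41.4 and 32.4 CPM after IL-2 (log2 change 0.60, SE 0.10, edgeR adjusted p = 0.000146), without overlap. Fdps, Lss and Acat2 lost the call against PBS without certain single libraries (highest edgeR adjusted p 0.0283 to 0.0356), each of the 8 ending at least 1 of them, and the other 16 calls held throughout. Exons of Fdps overlap those of Gm43738 on the same strand over 26.7% of their length, so that its count is uncertain. Tm7sf2 shares 532 exonic bases with Vps51 on the same strand, and Hmgcs1 (557 bases), Idi1 (323) and Scap (985) share exonic bases with transcripts on the opposite strand, whose reads cannot be told apart where strand was not used.

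Abca1 and Mylip fell after FP at 16 h. Abca1 had 25.8, 16.6, 17.7 and 19.7 CPM after FP and 86.2, 68.8, 79 and 99.2 CPM after IL-2, against 73.4, 54.8, 70.9 and 62.1 CPM after PBS (log2 change -1.71, SE 0.14, edgeR adjusted p = 6.77e-08 for FP against PBS). Mylip had 25.4, 22.2, 26.1 and 27.4 CPM after FP and 55.7, 50.7, 53.1 and 59.9 CPM after IL-2, against 47.6, 46.8, 68.8 and 46.8 CPM after PBS (log2 change -1.06, SE 0.12, edgeR adjusted p = 2.29e-06 for FP against PBS). FP libraries were below all others in both genes, Abca1 standing at 0.306 and Mylip at 0.481 of the PBS level. Abcg1, an exporter to mature lipoproteins, had 129.5, 111, 110.1 and 118 CPM after FP, against 168, 167, 162 and 186 CPM after IL-2 (log2 change -0.54, SE 0.09, edgeR adjusted p = 0.000102), and Soat1, which esterifies cholesterol for storage, differed less (-0.28). The FP and IL-2 libraries did not overlap in Abcg1, which was not called for FP against PBS.

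Proliferation genes and markers of other cells are given beside these results. The summed level of 14 proliferation genes at 16 h was 1480 to 1565 CPM after FP and 360 to 487 CPM after IL-2, against 262 to 351 CPM after PBS. All 14 were called higher for FP and 7 of 14 for IL-2. Summed macrophage and other myeloid markers were 494 to 973 CPM after FP and 816 to 1396 CPM after IL-2, against 693 to 1185 CPM after PBS, with 1 of 11 called lower for FP. The part of either in the lipid gene changes was not tested.

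**Figure D3:**
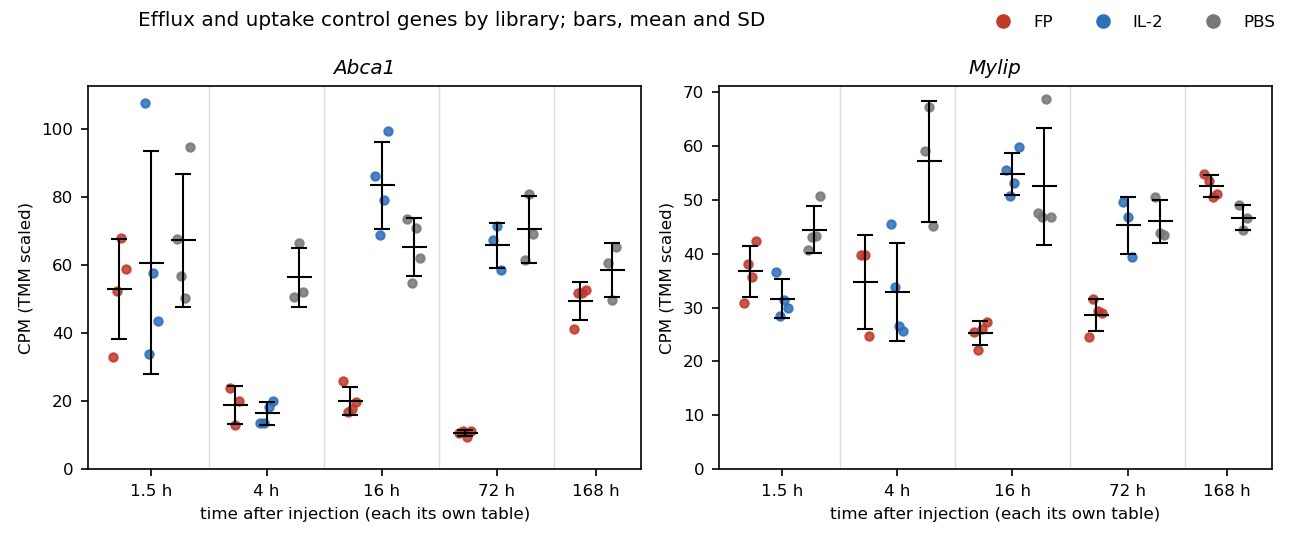
Level in CPM (vertical axis, from 0) of Abca1 and Mylip by library after FP (red), IL-2 (blue) and PBS (grey) at each time (horizontal axis), with mean and SD as bars. At 72 h the 4 FP libraries of Abca1 lie between 9.45 and 11.3 CPM, and the 3 PBS libraries between 61.3 and 80.9 CPM.

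At 72 h FP still differed from PBS, with 13 genes higher and 3 lower, where 17.3% of all genes rose and 13.1% fell (30.4% in all), and Abca1 had the largest change. IL-2 at 72 h gave 0 calls among the 36 genes by edgeR and by DESeq2, with 0% of all genes called. None of the 36 and 82 of all 18624 genes had an unadjusted p below 0.05. Abca1 had 10.7, 11.3, 9.45 and 11.1 CPM after FP and 67.3, 71.4 and 58.5 CPM after IL-2, against 61.3, 80.9 and 68.9 CPM after PBS (log2 change -2.72, SE 0.12, edgeR adjusted p = 2.88e-08 for FP against PBS). Elovl6 had 44.9, 47.6, 51.8 and 41.6 CPM after FP and 19.4, 20.9 and 18.3 CPM after IL-2, against 19.5, 17.2 and 17.9 CPM after PBS (log2 change 1.35, SE 0.10, edgeR adjusted p = 1.27e-06 for FP against PBS). Ebp had 71.1, 72.7, 62.9 and 50.001 CPM after FP and 27.2, 24 and 21.5 CPM after IL-2, against 29, 25.7 and 22.3 CPM after PBS (log2 change 1.32, SE 0.14, edgeR adjusted p = 2.14e-05 for FP against PBS). The FP libraries stood apart from the others in all 3 genes.

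Further along the pathway, Mvd had 33.5, 39.9, 36.9 and 31.7 CPM after FP, against 17.1, 20.7 and 15.4 CPM after PBS (log2 change 1.00, SE 0.12, edgeR adjusted p = 4.49e-05). Stard4 had 99.4, 106, 83 and 85.1 CPM after FP, against 55.6, 49.1 and 52.4 CPM after PBS (log2 change 0.83, SE 0.10, edgeR adjusted p = 5.87e-05). Fasn had 349, 383, 325 and 317 CPM after FP, against 209, 205 and 182 CPM after PBS (log2 change 0.79, SE 0.10, edgeR adjusted p = 5.7e-05). None of the 3 overlapped. Pmvk, a kinase of the mevalonate steps (0.82 on the log2 scale), Idi1 (0.88), Cyp51 (0.80), Nsdhl (0.66) and Sc5d, a late desaturase (0.36), rose too. In the fatty acid group the elongase Elovl5 (0.71), Fads1 (0.71) and Acly (0.52) rose. Mylip had 24.6, 31.6, 29.4 and 28.9 CPM after FP, against 50.6, 43.9 and 43.6 CPM after PBS (log2 change -0.68, SE 0.11, edgeR adjusted p = 0.000387). Abcg1 had 94.5, 113, 106 and 89.7 CPM after FP, against 134, 142 and 123 CPM after PBS (log2 change -0.40, SE 0.10, edgeR adjusted p = 0.00488). Both were lower in every FP library. Lss, Dhcr7, Insig1 and Msmo1, which stand in the same pathway, were not called and had log2 changes of -0.10, 0.10, -0.12 and 0.30.

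Idi1, Cyp51, Nsdhl, Sc5d, Acly and Abcg1 lost the call against PBS without certain single libraries, each of the 7 ending at least 1 of these calls, and without PBS replicate 3 the count was 8 higher and 2 lower. Set directly against IL-2, FP gave 14 genes higher and 2 lower, where 17.9% of all genes were higher and 12.9% lower (30.8% called). Without IL-2 replicate 3 there were 10 in all. Abca1 stood at -2.62, Ebp at 1.40 and Elovl6 at 1.25 on the log2 scale. Beside these values, summed proliferation genes were 2439 to 4376 CPM after FP and 252 to 326 CPM after IL-2, against 264 to 367 CPM after PBS, all 14 called higher for FP. Macrophage and other myeloid markers were 26.4 to 121 CPM after FP and 597 to 1065 CPM after IL-2, against 588 to 1475 CPM after PBS, 11 of 12 called lower for FP. Their part in the changes at 72 h was not tested. Macrophages also express Abca1, whose log2 changes at 4 h were -1.78 after IL-2 and -1.58 after FP. The myeloid sum at 4 h was 183 to 642 CPM after IL-2 and 164 to 701 CPM after FP, against 234 to 446 CPM after PBS. The part of myeloid cells in the Abca1 changes at 4 h was not tested either.

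At 168 h after FP edgeR called 0 of 36 genes and DESeq2 called 1 (Scd1). Of all genes 1.21% were called by edgeR (0.201% higher and 1.01% lower) and 2.99% by DESeq2. By unadjusted p, 3 of the 36 and 2582 of all 17411 genes were below 0.05, a lower share of the 36 than of all. Abca1 had 41.1, 51.8, 51.8 and 52.6 CPM after FP, against 60.6, 49.6 and 65.2 CPM after PBS (log2 change -0.25, SE 0.12, edgeR adjusted p = 0.395), and the groups overlapped. The myeloid sum was 36.2 to 59.5 CPM after FP at 168 h, against 393 to 549 CPM after PBS, with 9 of 11 markers called lower. Its part in the values at 168 h was not tested. Scd1, a low gene, had 0.197, 0.263, 0.704 and 0.372 CPM after FP, against 2.2, 2.35 and 1.45 CPM after PBS, without overlap (log2 change -2.39, SE 0.50, edgeR adjusted p = 0.0306). Elovl6 had 30.0, 27.1, 25.7 and 25.2 CPM after FP, against 20.7, 27.4 and 18.4 CPM after PBS (log2 change 0.29, SE 0.15, edgeR adjusted p = 0.397), with overlap. The median log2 change was -0.02 over the sterol synthesis genes and 0.06 over the efflux and storage genes.

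**Figure D4:**
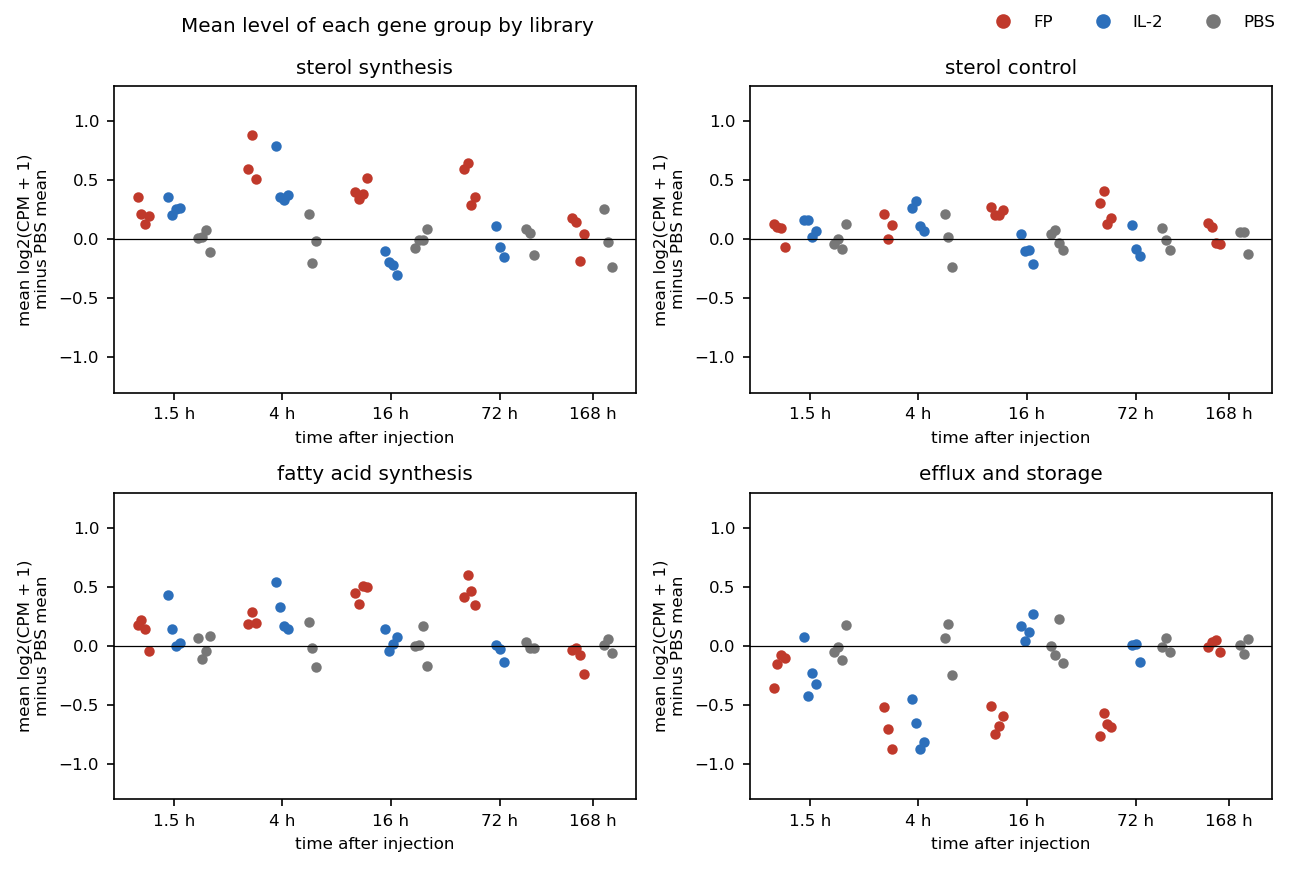
Mean over the genes of each group of log2(CPM + 1), minus the mean of the PBS libraries of the same table (vertical axis), by library after FP (red), IL-2 (blue) and PBS (grey) at each time (horizontal axis). Efflux and storage values of FP libraries run between -0.77 and -0.57 at 72 h and between -0.05 and 0.05 at 168 h. Sterol synthesis values of FP libraries run between 0.34 and 0.52 at 16 h, where IL-2 libraries run between -0.31 and -0.10.

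Whether an effect changed with time was tested as the difference between log2 changes of 2 tables, each with its own PBS libraries. The IL-2 effect at 16 h minus that at 1.5 h was lower in 12 genes and higher in 2, where 7.83% of all genes were lower and 5.02% higher (12.8% called). The 12 held 9 of the 18 sterol synthesis genes, among them Hsd17b7 (difference -1.33, SE 0.17, edgeR adjusted p = 2.48e-06), Msmo1 (difference -1.09, SE 0.23, edgeR adjusted p = 0.00125) and Sqle (difference -1.04, SE 0.16, edgeR adjusted p = 3.41e-05), together with Fasn (difference -1.06, SE 0.13, edgeR adjusted p = 1.46e-06). Scd2 (difference 1.37, SE 0.16, edgeR adjusted p = 7.67e-07) and Abcg1 (0.62) went the other way. For FP, the differences between 16 h and 1.5 h were few: Acaca (0.79), Scd2 (0.93) and Nsdhl (0.61) were higher at 16 h and Mylip lower (-0.76), with 4.98% of all genes called (3.56% higher and 1.42% lower). Without PBS replicate 1 of the earlier table, 2 of these 4 were called.

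For FP at 72 h minus 16 h, Pmvk (0.64), Ebp (0.70) and Elovl5 (0.63) were higher, and Acaca (-0.69) and Abca1 (difference -1.02, SE 0.20, edgeR adjusted p = 0.000568) were lower, with 15.6% of all genes called (8.6% higher and 7% lower). The calls of Pmvk and Ebp were both lost, leaving 3, without FP replicate 1 or PBS replicate 2 or 3 of the 72 h table, or without FP replicate 2 or 4 or PBS replicate 3 of the 16 h table. For FP at 168 h minus 72 h, Abca1 (difference 2.48, SE 0.17, edgeR adjusted p = 7.2e-08) and Mylip (0.86) were higher, and Mvd (-1.07), Elovl6 (-1.06), Fasn (-0.69) and Stard4 (-0.67) were lower, with 8.6% of all genes called (2.2% higher and 6.4% lower).

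Tregs given IL-2 in vitro for 1.5 h showed another pattern, led by Elovl6. Of the 36 genes 6 rose and 3 fell, where 7.4% of all genes rose and 6.54% fell (13.9% in all). Elovl6 had 109.8, 109 and 111 CPM with IL-2, against 21.7, 20.3 and 23.5 CPM with PBS, 5.04-fold (log2 change 2.33, SE 0.05, edgeR adjusted p = 2.43e-22). Mvk, the mevalonate kinase, had 17.9, 17.2 and 19.3 CPM with IL-2, against 36.9, 37.6 and 37.5 CPM with PBS (log2 change -1.04, SE 0.06, edgeR adjusted p = 6.25e-13). Soat1 had 91.4, 90.1 and 90.4 CPM with IL-2, against 60.5, 59.4 and 66.3 CPM with PBS (log2 change 0.55, SE 0.05, edgeR adjusted p = 3.23e-10). The groups were far apart relative to their spread in all 3 genes, and the common biological variation of this table was 4.48%.

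Smaller changes in vitro were called for Scd2, with 58.7, 59.5 and 63.2 CPM with IL-2 and 51.3, 46.9 and 47.1 CPM with PBS (log2 change 0.32, SE 0.05, edgeR adjusted p = 2.8e-05). Elovl5 fell, with 303, 313 and 296 CPM with IL-2 and 387, 391 and 397 CPM with PBS (log2 change -0.37, SE 0.04, edgeR adjusted p = 4.17e-09). Stard4 (0.23), Fdft1 (0.27) and Acat2 (0.29) rose and Hmgcs1 (-0.16) fell, by less. Hmgcs1 had 112, 112 and 104 CPM with IL-2 and 121, 121 and 124 CPM with PBS. Hmgcs1, Fdft1 and Acat2 lost the call without certain single libraries, each of the 6 except PBS replicate 1 ending at least 1 of them. Fasn, which had risen in the animal, had 313, 325 and 310.4 CPM with IL-2 and 322, 296 and 301 CPM with PBS, a log2 change of 0.05 (95% interval -0.03 to 0.12). The median over the sterol synthesis genes was 0.01, with 2 higher and 2 lower.

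The IL-2 effect in vitro minus that in the animal at 1.5 h was higher in 3 genes and lower in 5, with 4.96% of all genes called (2.13% higher and 2.84% lower). It was higher for Elovl6 (difference 1.46, SE 0.21, edgeR adjusted p = 0.000156), Scd2 (difference 1.29, SE 0.17, edgeR adjusted p = 5.21e-05) and Soat1 (0.62). It was lower for Fasn (difference -0.93, SE 0.13, edgeR adjusted p = 8.13e-05), Hsd17b7 (-0.83), Cyp51 (-0.69), Mvk (-0.61) and Ebp (-0.54). The last 4 lost the call together without in vitro IL-2 replicate 1 or 2 or in vitro PBS replicate 2 or 3, leaving 4 calls. Scd2 had opposite signs in the animal and in the dish, lower with IL-2 in the animal and higher with IL-2 in vitro. The settings differ in table and in the number of sequencing runs as well as in the place of exposure, and these cannot be told apart.

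**Figure D5:**
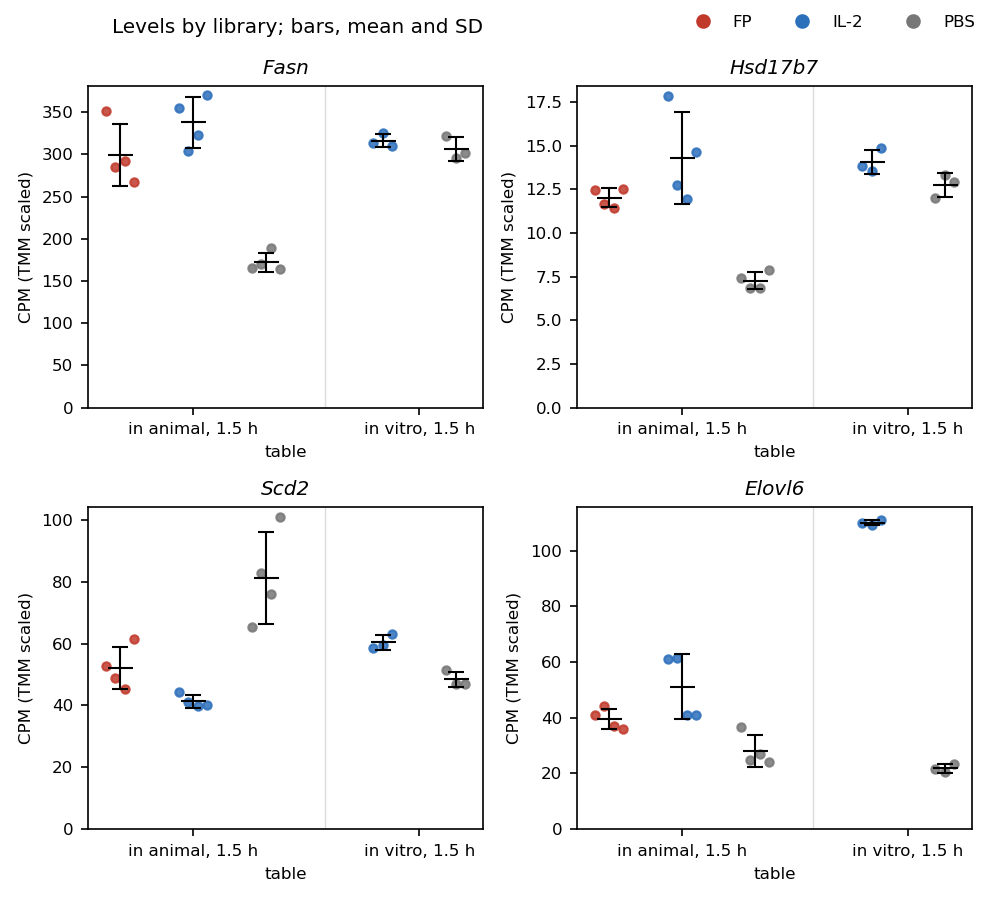
Level in CPM (vertical axis, from 0) of Fasn, Hsd17b7, Scd2 and Elovl6 by library in the 1.5 h table of injected mice and in the in vitro table (horizontal axis), after FP (red), IL-2 (blue) and PBS (grey), with mean and SD as bars. Elovl6 lies at 109 to 111 CPM with IL-2 in vitro against 20.3 to 23.5 CPM with PBS, while Fasn lies at 313, 325 and 310.4 CPM with IL-2 and 322, 296 and 301 CPM with PBS.

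After the high dose of IL-2 edgeR called 0 of 36 genes and 0% of all genes, and DESeq2 called none of the 36 and 549 genes in all. By unadjusted p, 9 of the 36 and 2743 of all 16668 genes were below 0.05. The spread was wide (common biological variation 40.7%). Elovl6 had 28.1, 10.8 and 31.9 CPM after IL-2, against 11.1, 17.7 and 3.42 CPM after PBS (95% interval -0.39 to 2.67 on the log2 scale), with overlap. Hsd17b7 had 7.77, 8.4 and 7.1 CPM after IL-2, against 12.45, 10.4 and 11.3 CPM after PBS (log2 change -0.55, SE 0.20, edgeR adjusted p = 0.242), the IL-2 libraries all being lower. The median log2 change of the sterol synthesis genes was -0.05, with 8 of 18 positive. The summed proliferation genes were 832 to 1702 CPM after IL-2, against 247 to 317 CPM after PBS, and their relation to the lipid genes was not tested. Myeloid markers summed to 59.2 to 82.8 CPM after IL-2, against 130 to 146 CPM after PBS.

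In the restimulation table edgeR called 0 of 36 genes in each of 3 comparisons. For repeated FP against PBS 0.629% of all genes were called (0.373% higher and 0.256% lower). For single FP against PBS 0.0111% were called, and for repeated against single FP 0.585%. In the same order, 6, 1 and 9 of the 36 had an unadjusted p below 0.05, against 3900, 1608 and 3540 of all 17953 genes. In both comparisons with PBS this was a lower share of the 36 than of all genes. DESeq2 called Scd2 for repeated FP against PBS and none of the 36 in the other comparisons. Scd2 had 65.2, 72.8, 51.1 and 72.8 CPM after repeated FP and 100.4, 62 and 69.6 CPM after single FP, against 138, 91.7 and 134 CPM after PBS (log2 change -0.89, SE 0.21, edgeR adjusted p = 0.0423 for repeated FP against PBS). Fasn had 331, 444, 274 and 382 CPM after repeated FP and 238, 265 and 253 CPM after single FP, against 252, 195 and 271 CPM after PBS (log2 change 0.58, SE 0.18, edgeR adjusted p = 0.0931 for repeated FP against PBS). Abca1 had 26.1, 14.5, 26.4 and 18.4 CPM after repeated FP and 30.1, 27.3 and 30.5 CPM after single FP, against 34.6, 25.115 and 21.9 CPM after PBS. Libraries of repeated FP and PBS did not overlap for Scd2 and Fasn and overlapped for Abca1. Myeloid markers summed to 49.7 to 128 CPM after repeated FP and 241 to 264 CPM after single FP, against 129 to 257 CPM after PBS. The single FP injection, read at the same 1.5 h as in the time course, left Fasn at a log2 change of 0.07 (95% interval -0.34 to 0.49), where the time course gave 0.80; the difference between these tables was not tested.

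Over the 13 comparisons with PBS, 29 of the 37 genes were called at least once by edgeR and 8 never were, counting Fads2, which edgeR's low-count filter left out. Of all genes tested in at least 1 of these comparisons 47.4% were called at least once, and 55.4% of those tested in all 13. Mvd, Cyp51, Fasn and Elovl6 were each called higher in 4 comparisons and lower in none. Abca1 and Mylip were each called lower in 3 and higher in none. Scd2 and Elovl5 were called in both directions, Scd2 lower after IL-2 and FP at 1.5 h and higher in vitro, Elovl5 higher after FP at 72 h and lower in vitro. The genes of the transcription factors themselves, Srebf1 and Srebf2, were among those never called. Srebf2 had 272, 238, 251 and 257 CPM after FP and 233, 212, 213 and 191 CPM after IL-2 at 16 h, against 241, 256, 209 and 202 CPM after PBS, with overlap. Insig1, the late sterol reductases Tm7sf2 and Dhcr7, Scd1 and Nr1h2 were not called by edgeR in the main fits of these 13 comparisons either. Outside them, edgeR called Insig1 higher for FP against IL-2 at 16 h. Its IL-2 effect was also called lower at 16 h than at 1.5 h (difference -0.58). DESeq2 called Scd1 at 168 h. Fads2, a desaturase gene listed in the 72 h table, had 14, 8, 16 and 6 reads after FP and 0, 4 and 4 reads after IL-2 there, against 0, 2 and 2 reads after PBS. These few reads did not overlap between FP and PBS, and without the filter Fads2 was called higher after FP at 72 h (edgeR adjusted p = 0.00835, DESeq2 adjusted p = 0.00305). Every deposited gene exceeded 0.5 CPM in at least 3 columns, and the IL-2 and PBS reads were too few for that. Fads2 therefore had a row only through its FP columns. Its difference from PBS was in part fixed by that rule and is no support for an increase.

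Other genes of the same pathways, listed beside the 37, were tested in the same fits. Of 17 further sterol and isoprenoid genes, 4 rose and 3 fell after FP at 16 h, where 14.4% of all genes rose and 14.3% fell. They were led by Gramd1a, a sterol transfer protein, lower (-1.14 on the log2 scale), and Tmem97, which binds sterols, higher (1.03). Of 16 further fatty acid genes tested, 4 rose and 2 fell at that time, against the same shares of all genes, led by Acss2, which makes acetyl-CoA from acetate, lower (-1.27), and Acacb, a second acetyl-CoA carboxylase gene, higher (1.03). Acss2 was also lower after IL-2 at 4 h (-1.46), after FP at 4 h (-1.36) and with IL-2 in vitro (-0.50). Of 15 genes of fatty acid oxidation, 8 rose and 1 fell after FP at 72 h, where 17.3% of all genes rose and 13.1% fell, with a median log2 change of 0.42 against -0.05 over all genes. The largest were Etfb, an electron carrier subunit (1.06), and Cpt1a, which admits fatty acids to mitochondria (0.99). Of 9 further LXR-related genes, Nr1h3, the other LXR receptor gene, fell after FP at 72 h (-2.53) and at 168 h (-1.82), as did the myeloid markers given above, and Rxra, the partner receptor gene, rose at 72 h (0.74).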

How the data were processed

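The deposited tables held raw counts per gene, 1 table per time or experiment. Per the labels and the series design text, reads were aligned to GRCm38 with STAR 2.5.0 and the authors counted them per GENCODE M13 gene with featureCounts 1.5.0; use of strand is not given in the sources used here. Every deposited gene exceeded 0.5 CPM in at least 3 columns. The 91 samples are 75 libraries, since the 72 h and in vitro tables held 2 runs per library, whose counts were summed. At 4 h, 2 libraries with contradicting labels were left out.

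Each table was fitted with edgeR 4.0.16 in R 4.3.3 (TMM scaling, filterByExpr, 1 mean per group, quasi-likelihood F test), with Benjamini-Hochberg adjustment over all genes tested and the 0.01 threshold named in the series design text. Standard errors (SE) were taken from the F statistic. Differences between tables came from joint fits with a mean per group. The scripts were tested on simulated data. Gene symbols and exon overlaps came from a later GENCODE release of the same build and promoter windows from RefSeq. DESeq2 1.42.0, RLE size factors, no filter, a replicate block, only the groups compared and leaving out each library were the alternatives.

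Replicate numbers were taken to pair libraries where every same-numbered pair correlated above 0.1, which held for IL-2 and FP against PBS at 4 h (0.18 to 0.821) and IL-2 against PBS at 72 h (0.291 to 0.423).

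All 37 genes may be named; library values are given for a fixed panel where called and for the largest called changes of a group, and values of genes that were not called or lie outside that rule were chosen after they were seen. Of other lists the 2 largest called changes are named; Acss2 is also given where it was called. The genes and lists were chosen with earlier results of these data known. The share of all genes whose groups did not overlap is not given, so for a gene that was not called non-overlap only describes its libraries.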

Additional observations from a re-analysis of the deposited data

Results flagged for a closer look

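In groups of 4 libraries, 8 of 140 tested held a library far from the others (5.71%, where chance gives about 5%). At 1.5 h Abcg1 was 113 CPM in FP replicate 1 against 122 to 123 CPM in the others, Srebf1 was 73.6 CPM in IL-2 replicate 3 against 90.1 to 92.8 CPM, and Sqle was 27.0 CPM in PBS replicate 3 against 20.6 to 21.6 CPM. At 4 h IL-2 replicate 1 was high for Hmgcs1, at 66.7 CPM against 51.6 to 53.3 CPM, and for Sqle, at 55.2 CPM against 42.8 to 44.9 CPM. At 16 h Scd2 was 137 CPM in PBS replicate 3 against 102 to 103 CPM, at 168 h Abca1 was 41.1 CPM in FP replicate 1 against 51.8 to 52.6 CPM, and Hmgcs1 was 35.1 CPM in repeated FP replicate 2 against 45.1 to 46.3 CPM.

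The other results singled out are effects that differed between tables by edgeR at an adjusted p below 0.01, given as differences of log2 changes. For FP at 16 h minus 1.5 h they were Nsdhl 0.61, Acaca 0.79, Scd2 0.93 and Mylip -0.76. For FP at 72 h minus 16 h they were Pmvk 0.64, Ebp 0.70, Acaca -0.69, Elovl5 0.63 and Abca1 -1.02. For FP at 168 h minus 72 h they were Mvd -1.07, Stard4 -0.67, Fasn -0.69, Elovl6 -1.06, Abca1 2.48 and Mylip 0.86. For IL-2 at 16 h minus 1.5 h they were Hmgcs1 -0.74, Mvd -0.58, Fdft1 -0.82, Sqle -1.04, Lss -0.75, Cyp51 -1.02, Msmo1 -1.09, Hsd17b7 -1.33, Ebp -0.52, Insig1 -0.58, Fasn -1.06, Scd2 1.37, Elovl6 -0.79 and Abcg1 0.62. For IL-2 in vitro minus in the animal they were Mvk -0.61, Cyp51 -0.69, Hsd17b7 -0.83, Ebp -0.54, Fasn -0.93, Scd2 1.29, Elovl6 1.46 and Soat1 0.62.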

How the results depend on the processing

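No named gene or count reversed its direction under any alternative run. DESeq2 called 9 of the 36 genes for FP at 1.5 h, 6 for IL-2 at 4 h (4.27% of all genes), 7 for FP at 4 h, 1 for FP at 168 h and 1 for repeated FP, where edgeR called 5, 2, 0, 0 and 0. With only the groups compared in the fit, 2 were called for FP at 1.5 h (5.32% of all genes) and 0 for IL-2 at 4 h (0.157%). The replicate block gave 7 for FP at 4 h and moved no other count by over 1.5 times, giving 3 for IL-2 at 4 h. Grouping the 2 libraries with contradicting labels by title also gave 7 for FP at 4 h (3.42%). A lane covariate gave 1 for IL-2 at 4 h (0.267%) and 0 for FP at 4 h (0% of all genes). Lane and FP are partly confounded there and cannot be fully told apart. The column-name tag as block, chosen after seeing the data, gave 12 each for IL-2 and FP. Leaving out 1 library gave 1 to 4 for FP at 1.5 h, 0 for IL-2 at 4 h, 0 to 2 for IL-2 at 16 h, 10 to 16 for FP against PBS at 72 h and 10 to 18 for FP against IL-2 at 72 h. For differences between tables it gave 2 to 4 for FP at 16 h minus 1.5 h, 3 to 5 for FP at 72 h minus 16 h and 4 to 9 for in vitro minus animal. The causes were not tested. Libraries that varied widely within groups limit what the 4 h, high dose and restimulation tables can show, and an uncalled gene there is not shown to be unchanged.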
